A study of Mus musculus with 6 samples.

Results

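Galectins are lectins that bind sugar chains ending in galactose. They are made in the cytosol, leave the cell without a signal peptide, and crosslink glycoproteins on cell surfaces and in the matrix. Inside cells they also recognise host glycans that become exposed when a vesicle breaks. In the thymus, galectins made by epithelial cells and macrophages are known to bind thymocytes and to influence their adhesion and death. Prototype galectins (galectin-1, galectin-2 and galectin-7) have a single carbohydrate-binding domain, the chimera galectin-3 joins such a domain to a proline-rich tail, and tandem-repeat galectins (galectin-4, galectin-8, galectin-9 and galectin-12) carry a linked pair of domains.

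The 8 galectin genes Lgals1, Lgals2, Lgals3, Lgals4, Lgals7, Lgals8, Lgals9 and Lgals12 are described here, of 19938 genes with a probe set of their own on the array. They were taken by name, with the probe set of highest mean per gene, and 0 of the 8 had more than 1 such probe set. As a family the galectins were selected on their log2 values in Aire KO against Aire WT arrays, whose differences were already known. Those differences are therefore a description, given with a standard error (SE) and without a p-value. The arrays hold RNA of medullary epithelial cells (MECs) of the thymus, sorted as CD45-, Ly51 intermediate and high in MHC class II, from (B6xNOD)F1 mice, the offspring of a cross of B6 with the diabetes-prone NOD strain, aged 4 to 6 weeks. Aire, absent from the KO mice by label, is a transcriptional regulator through which these cells display genes of other organs to developing T cells. There were 3 Aire KO (Aire-/-) and 3 Aire WT mice, each hybridised to its own array. The labels name no transgene, Cre or drug, and do not say which part of Aire was removed. Each p-value below sets a difference against the spread between arrays of different mice, as estimated by limma. That spread also holds amplification and hybridisation.

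All values are log2 of the authors' RMA intensity, and a difference is the KO mean minus the WT mean. Array medians before the log were 92.9 to 98.2, and Pearson correlations of log2 values across probe sets were 0.991 to 0.993 within KO, 0.990 to 0.993 within WT and 0.976 to 0.985 between them. The Aire probe set read 12.38 to 12.42 on KO arrays and 11.92 to 12.00 on WT arrays. It was thus higher on KO arrays, and since the deleted part is not stated, this probe set does not check the genotype labels. The 13 genes listed as markers of medullary epithelium, such as Fezf2, Cd80 and Tnfrsf11a, were above the intensity filter on every array. Not all of them are particular to these cells. Their mean log2 value was 10.90 to 10.99 on KO arrays and 10.98 to 11.02 on WT arrays. Genes were tested with limma if they exceeded a log2 value of 5.97 (the 40th percentile of all values) on at least 3 of 6 arrays. All 8 galectins did so on every array, so none passed through 1 group alone. Of the 13 medullary markers, 2 were called higher (Relb and Ciita) and 3 lower (Krt5, Krt14 and Epcam), with differences of 0.35, 0.29, -0.84, -0.44 and -0.37. Thus 38.5% were called, where 26.1% of all tested genes were. The calls of Ciita, Krt14 and Epcam were lost when some single arrays were left out.

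All 8 galectins averaged lower in KO MECs, by differences between -2.71 and -0.13. The difference was largest for Lgals2, followed by Lgals4 at -0.61, and lay between -0.32 and -0.13 for the other 6. The median was -0.28, against 0.02 over the 13925 genes tested. Under limma with a Benjamini-Hochberg adjusted threshold of 0.05, 4 of the 8 were called lower (Lgals2, Lgals4, Lgals9 and Lgals12) and 0 higher, where 26.1% of all tested genes were called, 14.1% lower and 12.0% higher. For 6 of the 8 every KO array lay under every WT array, a pattern shown by 20.5% of tested genes, while 22.0% showed KO above WT and 42.4% either separation. Because the same comparison chose the genes, these counts describe them and test nothing. In bulk RNA of sorted cells, fewer cells of a type and less RNA per cell cannot be told apart.

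**Figure D1:**
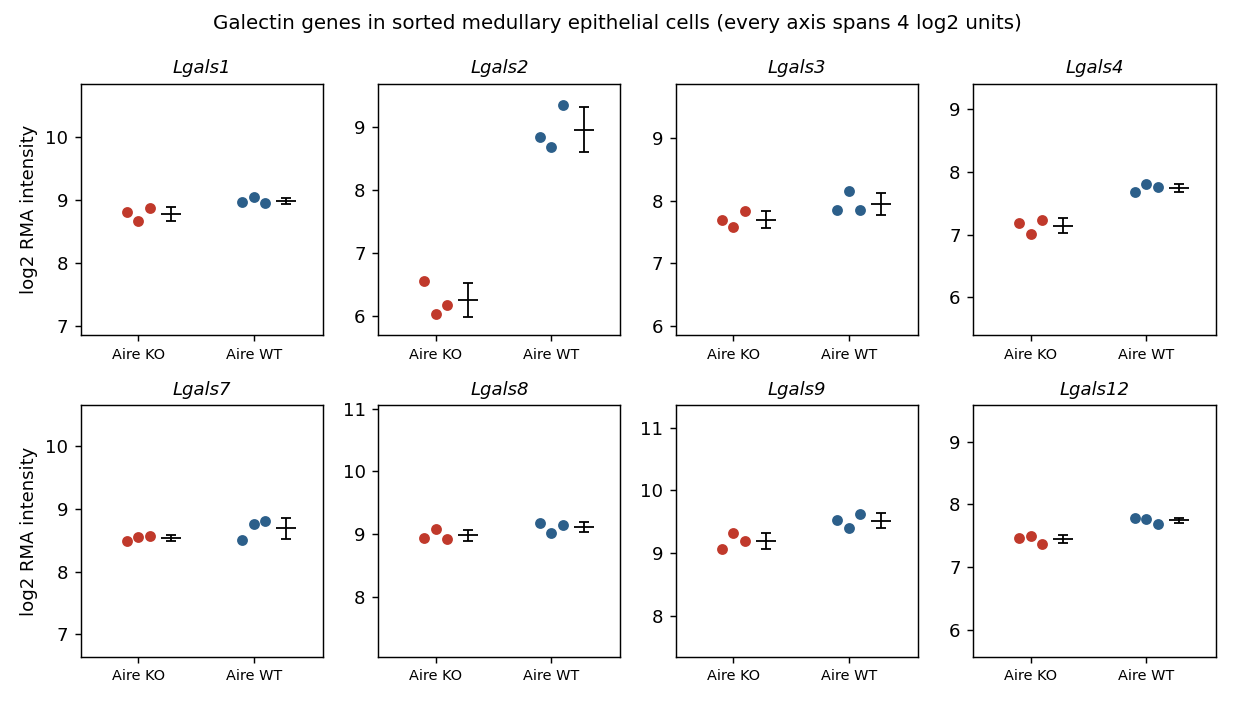
Log2 RMA intensity of the 8 galectin genes, with Aire KO at the left and Aire WT at the right of each panel. Points are single mice, black bars the mean and SD of 3, and every vertical axis spans the same 4 log2 units. Lgals2 separates widely, at 6.02 to 6.55 in KO and 8.68 to 9.36 in WT mice, and Lgals7 and Lgals8 overlap.

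The promoters of 3 of the galectins called lower are shown, since these are the ones the results turn on. RefSeq sequences of assembly GRCm38.p6 cover 250 bases before to 50 after the transcript start, and 6 of the 8 galectins had one; Lgals1 and Lgals12 are named only. Capitals mark matches to the core of the interferon-stimulated response element on either strand, searched as GAAA, any 2 bases and GAAA. This element is bound by interferon-activated factors.
Lgals2, chr15:78855480-78855779, minus strand: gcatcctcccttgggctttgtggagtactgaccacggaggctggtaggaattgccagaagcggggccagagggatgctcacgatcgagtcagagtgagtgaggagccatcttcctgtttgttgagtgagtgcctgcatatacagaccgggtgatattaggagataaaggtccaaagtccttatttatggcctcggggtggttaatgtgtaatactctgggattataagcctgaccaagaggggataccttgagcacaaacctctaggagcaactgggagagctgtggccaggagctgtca
Lgals4, chr7:28833544-28833843, plus strand: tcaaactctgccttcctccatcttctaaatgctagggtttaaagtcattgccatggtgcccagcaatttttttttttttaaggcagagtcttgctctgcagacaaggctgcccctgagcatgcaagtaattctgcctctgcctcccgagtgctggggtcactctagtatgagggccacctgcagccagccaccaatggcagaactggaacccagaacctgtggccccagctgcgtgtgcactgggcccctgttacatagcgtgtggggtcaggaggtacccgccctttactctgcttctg
Lgals9, chr11:78984875-78985174, minus strand: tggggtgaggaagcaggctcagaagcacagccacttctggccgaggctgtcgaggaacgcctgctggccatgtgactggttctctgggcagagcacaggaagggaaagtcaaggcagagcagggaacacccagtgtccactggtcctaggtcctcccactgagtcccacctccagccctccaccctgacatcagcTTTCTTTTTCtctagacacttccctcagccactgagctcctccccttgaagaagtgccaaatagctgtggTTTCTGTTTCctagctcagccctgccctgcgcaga

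Both matches in Lgals9 read as the reverse complement on the printed strand. They lie at bases -55 to -46 and 16 to 25 from the transcript start and overlap no other motif searched. This core stood in 3.44% of the 32851 promoter windows of the same length, and in 0 of the other 5 galectin windows. The TATA element TATAAA (13.6% of windows) and the AP-1 site TGANTCA (7.81%) were found in 0 of the 6. CG pairs, searched as the letters CG, numbered 18 in the Lgals3 window, 6 in those of Lgals2 and Lgals8, 5 in Lgals7 and 4 in those of Lgals4 and Lgals9, against a median of 7 over all windows. A match is a description of letters and not of a bound site.

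Among the prototype galectins, Lgals2 (probe set 10430425, chromosome 15) encodes galectin-2, a lectin of the gastric and intestinal mucosa. Its log2 values were 6.55, 6.02 and 6.16 in the 3 KO mice and 8.85, 8.68 and 9.36 in the 3 WT mice. No KO value came within 2 log2 units of a WT value. The mean was 6.25 ± 0.28 in KO and 8.96 ± 0.35 in WT MECs (SD, n = 3 each), a difference of -2.71 (SE 0.17) or 6.56-fold. Its size exceeded that of 99.8% of the genes tested. The lowest KO value, 6.02 against the intensity filter of 5.97, lay close to it, while all 3 KO arrays were above it. With an offset of 32 added to every intensity the difference was -2.29.

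Lgals1 (probe set 10425161), also on chromosome 15, encodes galectin-1, a lectin that thymic epithelium and stroma make and that can trigger thymocyte death. It read 8.81, 8.66 and 8.87 in KO mice and 8.97, 9.04 and 8.95 in WT mice. The groups did not overlap, with KO replicate 3 and WT replicate 3 the nearest values. The difference of -0.21 (SE 0.09) was not called.

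Lgals7 (probe set 10551638, chromosome 7) encodes galectin-7, a lectin of stratified epithelia such as epidermis. Values were 8.48, 8.55 and 8.56 in KO mice and 8.50, 8.76 and 8.81 in WT mice. WT replicate 1 lay among the KO values, and the difference of -0.16 (SE 0.10) was not called.

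The chimera gene Lgals3 (probe set 10414360, chromosome 14) encodes galectin-3, abundant in macrophages and many epithelia, which forms lattices on branched N-glycans. It read 7.69, 7.57 and 7.83 in KO mice and 7.85, 8.15 and 7.85 in WT mice. The highest KO array and the lowest WT array were almost level, and WT replicate 2 stood above the rest. The difference of -0.25 (SE 0.11) was not called.

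Of the tandem-repeat genes, Lgals4 (probe set 10551626, chromosome 7) had the largest difference. Galectin-4 is a lectin of the digestive tract that carries glycoproteins to the apical surface. Its values were 7.18, 7.002 and 7.23 in KO mice and 7.67, 7.80 and 7.76 in WT mice. The groups were tight and separate. The means were 7.14 ± 0.12 in KO and 7.75 ± 0.06 in WT MECs (SD, n = 3 each), a difference of -0.61 (SE 0.09) or 1.52-fold. Some mouse strains carry Lgals6, a close tandem copy of Lgals4 that C57BL/6 lacks, and the probe set could read both.

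Lgals9 (probe set 10388902, chromosome 11) encodes galectin-9, a ligand of the T cell inhibitory receptor Tim-3 that interferon induces in many cell types. It read 9.07, 9.32 and 9.20 in KO mice and 9.54, 9.39 and 9.63 in WT mice. KO replicate 2 and WT replicate 2 lay next to each other without crossing. The difference was -0.32 (SE 0.10) or 1.25-fold. Lgals12 (probe set 10465701, chromosome 19) encodes galectin-12, a lectin of adipocyte lipid droplets. It read 7.46, 7.49 and 7.37 in KO mice and 7.78, 7.76 and 7.69 in WT mice, a difference of -0.30 (SE 0.08) or 1.23-fold with groups apart.

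Lgals8 (probe set 10407766, chromosome 13) encodes galectin-8, which marks damaged endosomes for autophagy. It read 8.94, 9.09 and 8.92 in KO mice and 9.18, 9.02 and 9.15 in WT mice. The groups overlapped, and the difference of -0.13 (SE 0.09) was not called. Which galectins were called changed, for the smaller differences, when 1 array was left out. The Lgals9 call was lost without KO replicate 1 (difference -0.26), KO replicate 3 (-0.32), WT replicate 1 (-0.31) or WT replicate 3 (-0.27). The Lgals12 call was lost without KO replicate 3 (-0.26), WT replicate 1 (-0.28) or WT replicate 2 (-0.29). With 1 array left out, 2 to 4 galectins were called. In the same fits 17.4% to 23.3% of all tested genes were called, against 26.1% with all 6 arrays.

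**Figure D2:**
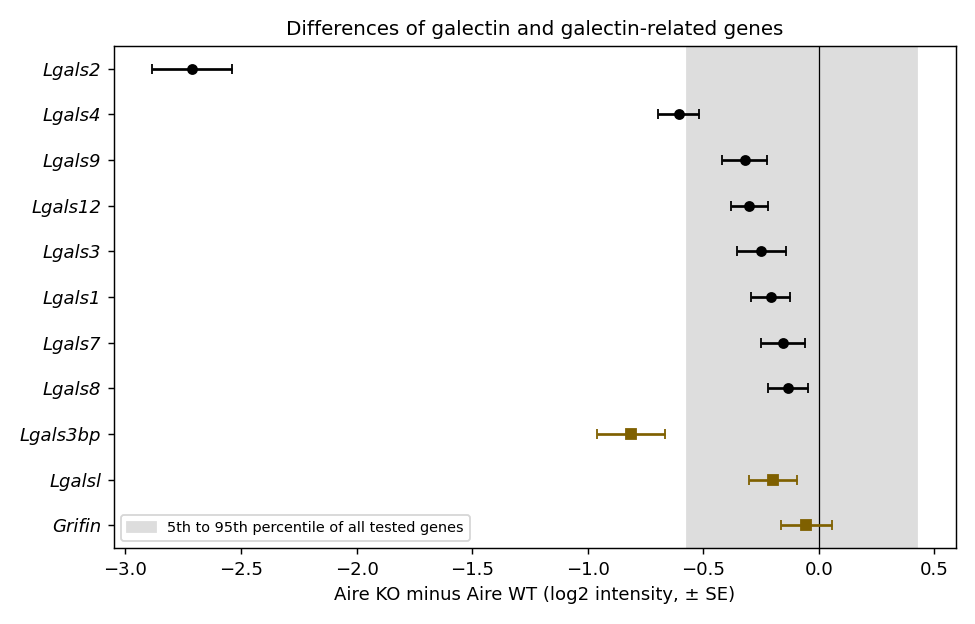
Difference of Aire KO minus Aire WT in log2 intensity for the 8 galectins (circles) and 3 related genes (squares), with SE from the limma fit. The grey band holds the 5th to 95th percentile of the 13925 tested genes, -0.57 to 0.43. Lgals2, Lgals4 and Lgals3bp lie below the band.

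The 3 related genes on the array were Lgals3bp, Lgalsl and Grifin, and 1 of them fell, where 14.1% of all tested genes were called lower. Lgals3bp encodes a secreted, heavily glycosylated protein that binds galectin-3 and is interferon inducible. Its values were 8.95, 9.48 and 9.46 in KO mice and 10.01, 9.97 and 10.35 in WT mice, with KO replicate 1 the lowest and no overlap. It fell by 0.81 on the log2 scale, to 9.30 ± 0.30 in KO, against 10.11 ± 0.21 in WT MECs (SD, n = 3 each, limma adjusted p = 0.0019). Lgalsl, a galectin-like gene, stood at -0.20 (SE 0.10) and Grifin, a lens galectin relative, at -0.05 (SE 0.11), and neither was called.

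The pattern of Lgals2 over the 6 arrays was most like that of Gstm1 (r = 0.998), a glutathione transferase gene, Efcab3 (r = 0.998) and Sele (r = 0.997), the gene of an endothelial selectin. These Pearson correlations are a description: the arrays share the split into KO and WT, and 1281 tested genes had an r above 0.9. Gstm1 averaged 8.14 ± 0.15 in KO and 9.79 ± 0.19 in WT MECs, Efcab3 4.86 ± 0.14 in KO, under the filter, and 6.51 ± 0.20 in WT MECs, and Sele 6.40 ± 0.06 in KO and 6.80 ± 0.04 in WT MECs (SD, n = 3 each). No galectin averaged higher in KO, so no pattern was matched in that direction.

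Every gene list used here was chosen with earlier results of these data known, so its counts describe it and test nothing. Among 29 tested genes for enzymes that build galectin ligands, 8 fell and 4 rose, so 41.4% were called where 26.1% of all genes were. Their median difference was -0.04, against 0.02 over all genes. With 1 array left out, 6 to 8 were called lower and 3 to 6 higher. The calls of Mgat2 and B3gnt3 were each lost in 4 of these fits, and that of C1galt1 in 2. B4galt1, which adds the galactose that galectins bind, fell by 0.55, to 8.81 ± 0.06 in KO, against 9.36 ± 0.12 in WT MECs (limma adjusted p = 0.00087). Man2a1, a mannosidase that trims N-glycans before they branch, fell by 0.60, to 7.07 ± 0.03 in KO, against 7.67 ± 0.17 in WT MECs (adjusted p = 0.00089). Gcnt1, which starts the core branch of O-glycans, rose by 0.54, to 9.83 ± 0.10 in KO, against 9.28 ± 0.09 in WT MECs (adjusted p = 0.00099). St3gal3, a sialyltransferase that caps galactose, rose by 0.51, to 8.73 ± 0.06 in KO, against 8.22 ± 0.09 in WT MECs (SD, n = 3 each, adjusted p = 0.0010).

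Other steps of the same route were named for their role after their values were seen. Mgat5, which makes the N-glycan branch preferred by galectin-3, read 7.78, 7.70 and 7.89 in KO mice and 8.35, 8.22 and 8.34 in WT mice, and fell by 0.51 (adjusted p = 0.0012). B3gnt2, which extends chains of N-acetyllactosamine, rose by 0.43 (adjusted p = 0.0042), and Gcnt2, which branches those chains, fell by 0.54 (adjusted p = 0.0034). The sialyltransferase genes St3gal4 and St3gal6 fell by 0.41 and 0.51, in the direction opposite to St3gal3. St6gal1, whose product blocks galectin-1 binding, stood at -0.22, and Mgat1 and Mgat4a at 0.23 and 0.21, and these were not called. Another 5 genes of the list were too dim to test, among them Mgat3 (0.13) and Gcnt3 (-0.44).

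**Figure D3:**
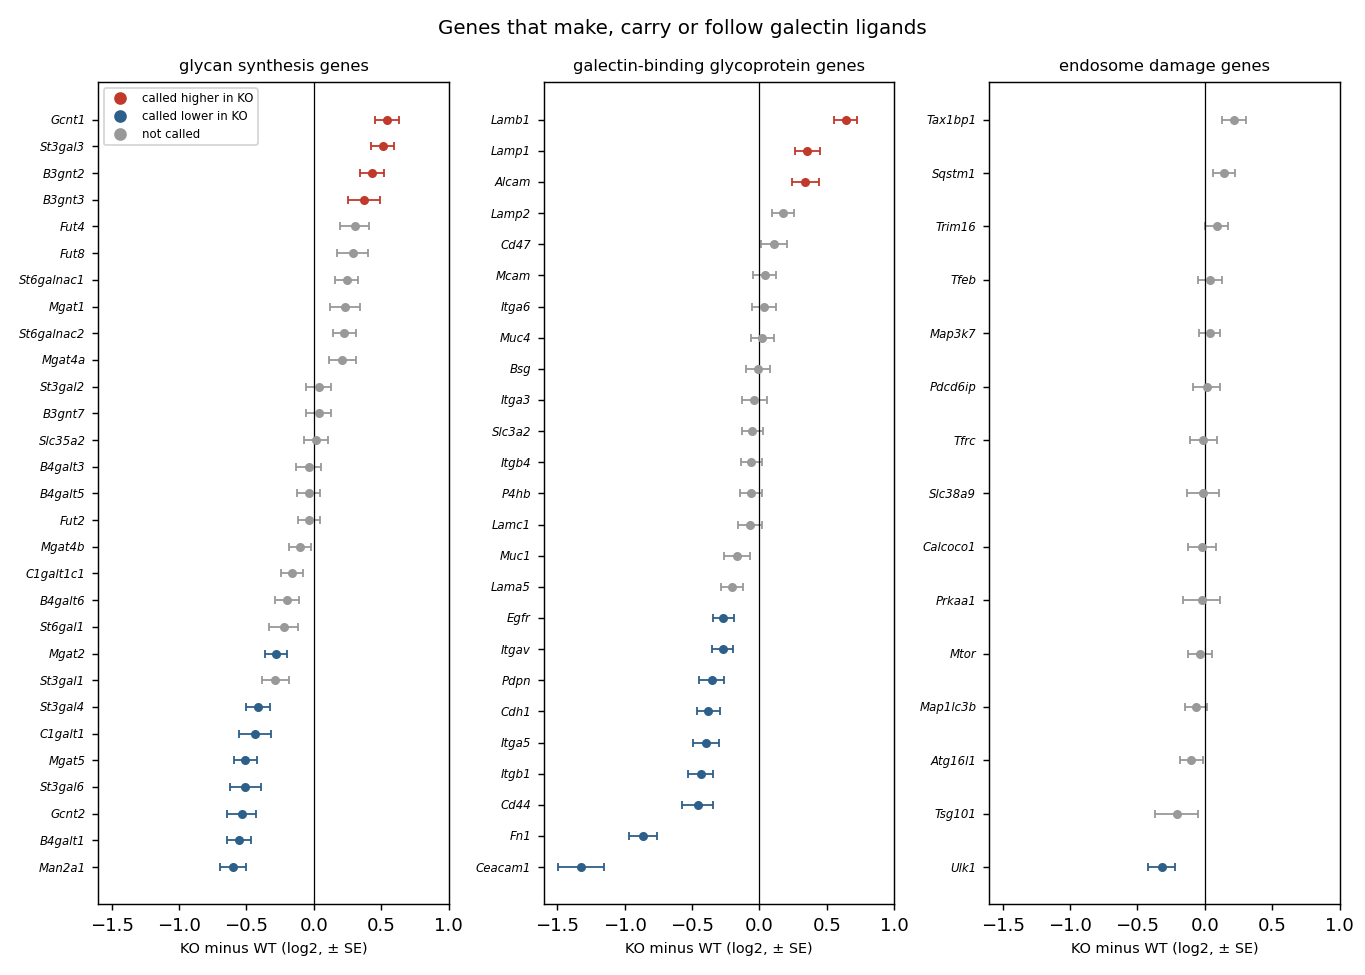
Difference of Aire KO minus Aire WT in log2 intensity (points, with SE) for the tested genes of 3 lists. Red points were called higher and blue points lower in KO MECs by limma. Called glycan synthesis genes lie on both sides of 0, called glycoprotein genes mostly below it, and 1 of 15 endosome damage genes was called.

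Among 25 tested genes of glycoproteins described as galectin ligands, 9 fell and 3 rose, so 48% were called where 26.1% of all tested genes were. Their median was -0.06 (0.02 over all genes). Ceacam1, an adhesion molecule, read 5.62, 6.39 and 5.94 in KO mice and 7.26, 7.11 and 7.55 in WT mice, and fell 2.50-fold (limma adjusted p = 0.00019). KO replicates 1 and 3 lay under the intensity filter. Fn1, the gene of fibronectin, fell 1.82-fold, to 8.85 ± 0.11 in KO, against 9.71 ± 0.18 in WT MECs (SD, n = 3 each, adjusted p = 0.00012). Lamb1, a laminin chain gene, rose 1.56-fold (adjusted p = 0.00026), and the integrin chain gene Itgb1 fell 1.35-fold (adjusted p = 0.0049). Bsg, Slc3a2, Itga3 and Itga6, which encode further ligands, stood between -0.05 and 0.04 and were not called. Without KO replicate 1, 5 of these genes were called lower, and without WT replicate 2, 1 was called higher.

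Genes that act with galectins at damaged endosomes, among them autophagy receptors and membrane repair factors, gave a single call. Of 15 tested, 1 fell and 0 rose, so 6.67% were called where 26.1% of all tested genes were. Their median was -0.01 (0.02 over all genes). The fall was in Ulk1, a kinase that starts autophagy, by 0.32 (limma adjusted p = 0.031). That call was lost without KO replicate 1 (adjusted p = 0.051), KO replicate 2 (0.096), KO replicate 3 (0.082) or WT replicate 3 (0.073), and with each array centred on its median (0.054). Trim16, a partner of galectin-3, stood at 0.09, and the autophagy receptor genes Tax1bp1 and Sqstm1 at 0.22 and 0.14, none of them called.

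Genes of the tissues where single galectins are best known were set beside them. Over all tested genes 26.1% were called, 14.1% lower and 12.0% higher. Gut surface genes, the company of Lgals2 and Lgals4, fell in 6 of 11 tested and rose in 2 (72.7% called), with a median of -0.37. Tff3, a trefoil factor gene of mucus, fell by 1.58 (limma adjusted p = 1.8e-05). The mucin gene Muc13 fell to 6.55 ± 0.07 in KO, against 8.08 ± 0.20 in WT MECs, and Krt20 to 7.14 ± 0.13 in KO, against 8.63 ± 0.20 in WT MECs (SD, n = 3 each, limma adjusted p = 1.5e-06 and 2.7e-06). Cdh17, an intestinal cadherin, rose by 0.48 (adjusted p = 0.0018). Cdx1 rose by 0.36, while Cdx2 fell by 0.43 (adjusted p = 0.0073). Stratified epithelium genes, the company of Lgals7, fell in 8 of 14 tested and rose in 0 (57.1% called), with a median of -0.45. The keratin genes Krt1, Krt10 and Krt5 fell, with differences of -2.67, -1.86 and -0.84 (adjusted p = 2.9e-07, 8.8e-07 and 0.00047). Dsg3, also lower, passed the filter on WT arrays alone. Perp, a desmosome gene, fell 1.97-fold (adjusted p = 1.8e-05), while Trp63, the regulator of stratified epithelium, stood at 0.14 and Dsc3 at -0.13, not called. Adipocyte genes, the company of Lgals12, fell in 2 of 8 tested and rose in 1 (37.5% called), with a median of 0.07. Lpl, a lipase gene, fell by 0.60 (adjusted p = 0.0026). The calls of Fabp4 (0.30) and Cidec (-0.28) were lost when 1 array was left out: that of Fabp4 without any array but WT replicate 3, and that of Cidec without any but KO replicate 1.

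Leukocytes also make galectins, and some of their markers were lower in KO MECs despite the CD45- sort. Of 10 tested markers of macrophages and dendritic cells, 5 fell and 1 rose (Cd68, a call lost without any array but WT replicate 3). Thus 60% were called, where 26.1% of all tested genes were. The summed intensity of the 12 on the array was 3668 to 3788 on KO arrays and 3983 to 4391 on WT arrays. Adgre1, the F4/80 macrophage antigen, read 5.38, 5.33 and 5.32 in KO mice and 6.90, 6.84 and 7.03 in WT mice (limma adjusted p = 2.3e-07), with every KO array under the filter. Itgam read 5.75, 5.51 and 5.38 in KO mice, likewise under the filter, and 6.62, 6.77 and 7.12 in WT mice. These 2 of the 5 passed the filter through the WT arrays alone. C1qb fell by 1.39 and Csf1r by 0.54. Lyz2, the lysozyme gene of myeloid cells, stood at -0.06 and was not called, and the dendritic cell markers Itgax and Siglech lay under the filter on every array. Of 8 tested thymocyte markers 2 fell and 0 rose, which at 25% called is near the 26.1% of all tested genes. The other 6 were not called, from Rag1 at -0.50 to Ptcra at 0.04, with Cd3e at -0.01. The summed intensity over 9 genes was 749.8 to 1036 on KO arrays and 1055 to 1789 on WT arrays. It includes Cd3g, whose difference of -1.40 was the largest of the list, and a sum without Cd3g was not taken. Cd3g read 7.08, 7.68 and 6.59 in KO mice and 8.18, 8.04 and 9.32 in WT mice (adjusted p = 0.0072, and 0.10 with trended, robust variances). The other called gene of this list, Ptprc, is the CD45 gene and is not particular to thymocytes. Ptprc, whose product is a galectin-1 ligand, read 6.52, 6.73 and 6.16 in KO mice and 6.92, 6.85 and 7.49 in WT mice (limma adjusted p = 0.022). That call was lost without KO replicate 3 (0.093) or WT replicate 3 (0.064). Whether these transcripts came from leukocytes or from the epithelial cells themselves was not tested. Any part of leukocytes in the galectin differences was not tested either.

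**Figure D4:**
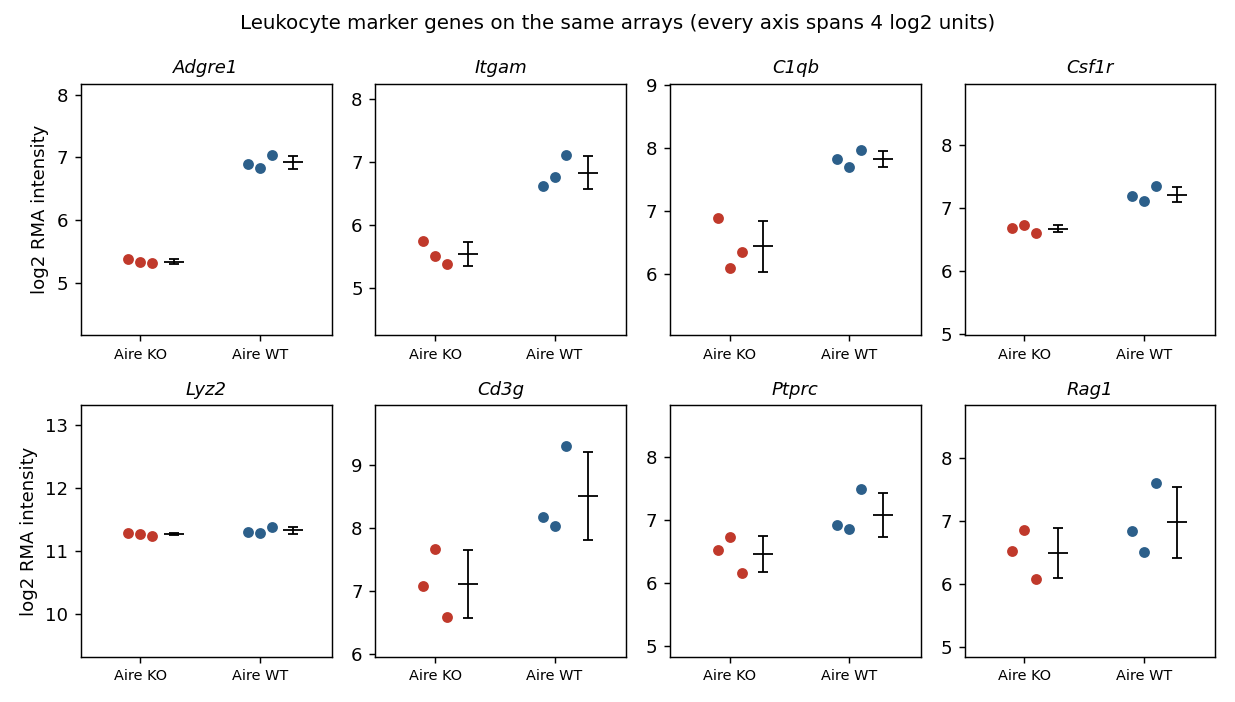
Log2 RMA intensity of 5 macrophage marker genes (Adgre1, Itgam, C1qb, Csf1r, Lyz2) and 3 genes listed as thymocyte markers (Cd3g, Ptprc, Rag1), with Aire KO at the left and Aire WT at the right. Points are single mice, black bars the mean and SD of 3, and each axis spans 4 log2 units. Adgre1 is lower on every KO array, while Lyz2 is level. The genes shown are only a part of the 2 lists. Among those left out, C1qa was called lower (-0.59) and Cd68 higher (0.32). Cd3e (-0.01) and Ptcra (0.04), also left out, were not called.

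T cell surface molecules described as galectin receptors were tested as a list of 13 that overlaps the thymocyte markers. The list also holds the thymocyte marker Rag1, which is not a surface molecule. Of these, 3 fell (Cd3g, Cd7 and Ptprc) and 1 rose, so 30.8% were called, near the 26.1% of all tested genes. Cd7, the gene of a galectin-1 receptor, fell by 0.59 (limma adjusted p = 0.0082), and Lag3, the gene of an inhibitory receptor bound by galectin-3, rose by 0.56, to 7.63 ± 0.13 in KO, against 7.07 ± 0.08 in WT MECs (SD, n = 3 each, adjusted p = 0.0010). Spn, the CD43 gene, stood at 0.05 and was not called, and Havcr2, the Tim-3 gene, lay under the filter on every array. Among other markers, 3 of 5 tested cortical epithelium markers rose (Ccl25, Tbata and Prss16), with Psmb11 under the filter on every array. Their list summed to 6858 to 7164 on KO arrays and 5141 to 5528 on WT arrays, with Ccl25 and Tbata its brightest genes. The Prss16 call was lost without KO replicate 2 (limma adjusted p = 0.063). Of 6 tested fibroblast markers 1 rose and 1 fell. In these lists 60% and 33.3% were called, where 26.1% of all tested genes were. Of 4 B cell markers on the array, Pax5 (0.31) and Cd79b (0.24) were called higher, while Ms4a1 (-0.48, every KO array below every WT array) and Cd79a (-0.11) lay under the filter on every array. The Pax5 call was lost without KO replicate 1, KO replicate 2, WT replicate 1 or WT replicate 3, and that of Cd79b with no intensity filter and without any array but WT replicate 3. Of 4 tested endothelium markers 0 were called by limma, and 1, Pecam1 (-0.26), had an unadjusted p under 0.05.

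Over the 27 nearest tested genes that are no galectins, taken as 2 on each side, 7 rose, 1 fell and 19 were not called, with a median of 0.13. The 29.6% called is near the 26.1% of all tested genes. By direction the shares differ: 7 of 27 rose, where 12.0% of all tested genes did, and 1 of 27 fell, where 14.1% did. Beside Lgals2, Mfng, a glycosyltransferase gene that modifies Notch, rose by 0.30 (limma adjusted p = 0.015; lost without KO replicate 1, 0.056), while Card10 stood at 0.16 and Gga1 at 0.07. Lgals4 and Lgals7 are next to each other among tested genes, with differences of -0.61 and -0.16, and Ech1 and Capn12 beside the pair stood at -0.02 and 0.13. Lgals9 lies between Nos2, the inducible nitric oxide synthase gene, and Ksr1, which rose by 0.50 and 0.54 (adjusted p = 0.0079 and 0.0012). Next to Lgals12, Plaat3, a phospholipase gene, rose by 0.60 (adjusted p = 0.00049), and Atl3 rose by 0.38 (adjusted p = 0.020), a call lost without KO replicate 2 (0.075), KO replicate 3 (0.071) or WT replicate 2 (0.069). Next to Lgals8, Ero1b and Edaradd rose by 0.47 and 0.34, and Mtr fell by 0.46.

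**Figure D5:**
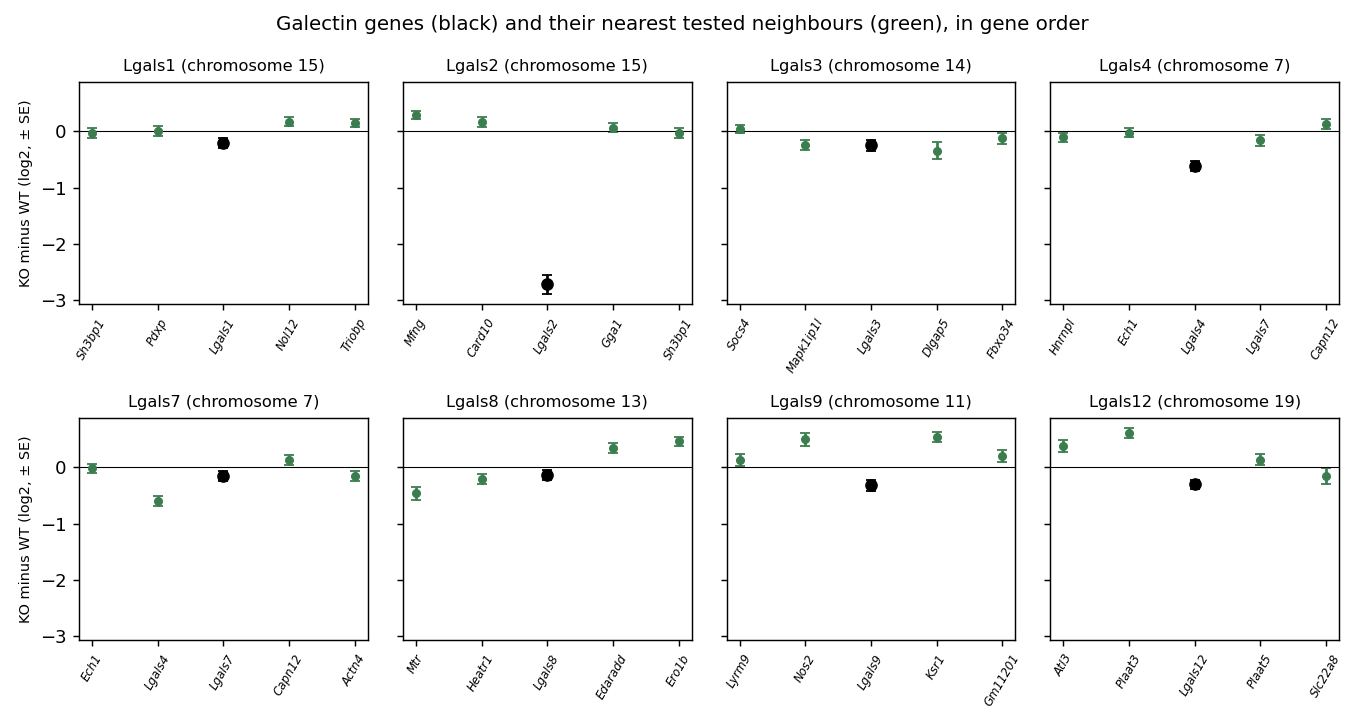
Difference of Aire KO minus Aire WT in log2 intensity (points, with SE) for each galectin gene (black) and the 2 nearest tested genes on each side (green, another galectin included), in gene order and not to scale. Lgals2, at -2.71, stands apart from neighbours at -0.03 to 0.30.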

How the data were processed

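RNA of each mouse was amplified repeatedly and hybridised as biotinylated cRNA, per the labels' protocols. The values the authors deposited are RMA intensities on the linear scale, per the submitters' processing notes; no RMA version or genome build is stated there. RMA equalises array distributions and carries no detection call, and the 6 arrays limit the precision. Log2 values were taken with a pseudocount of 0. Of 35512 probe sets, 21789 had 1 gene symbol, 1621 several and 12102 none; each gene took its 1-symbol probe set of highest mean. limma 3.58.1 (lmFit, eBayes, two-sided; R 4.3.3) compared KO with WT over 13925 genes, setting aside 6013 dim ones, and was tested on simulated data. Figures used matplotlib 3.10.9. Entrez identifiers of the 8 galectins matched RefSeq. Named genes were up to 4 called members of a list by adjusted p, and others were chosen after their values were seen. The galectins and lists were chosen with earlier results of these data known. B4galt2, Optn, Lck, Ephb2 and Cfd were not analysed here.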

Additional observations from a re-analysis of the deposited data

How the results depend on the processing

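The 8 galectin differences stayed below 0 in all 15 alternatives run, and the same 4 galectins were called in each of the 9 that kept all arrays. Only the Lgals2 difference moved by more than the spread between mice, to -2.29 with an offset of 32. Same-numbered mice did not deviate together (r = -0.02, -0.21 and -0.06), so replicate numbers were not used as pairs. With the replicate block, 1368 genes were called higher and 1742 lower, and adipocyte genes numbered 0 higher and 1 lower. The filter at the 60th percentile left 1 gene of the T cell galectin receptor list, 1 adipocyte gene and 0 genomic neighbours called lower. The listed genes whose calls were lost there were no longer tested. Quantile normalization again gave 7 glycan synthesis and 2 adipocyte genes called higher and 2 neighbours called lower. Median centring gave 0 endosome damage genes and 1 adipocyte gene called lower. Leaving out 1 array in turn gave 1052 (without KO replicate 1) to 1547 genes called higher and 1364 to 1877 called lower. Of the galectins 2 to 4 were then called lower. Of galectin-binding glycoprotein genes 5 to 9 were then called lower and 1 to 2 higher, and of endosome damage genes 0 to 1 lower. In the list of T cell galectin receptors, which includes Rag1, 2 to 5 genes were called lower. Of adipocyte genes 0 to 1 were called higher and 1 to 2 lower, and of neighbours 1 to 2 lower. The cause of the other moves was not tested. Over 15 settings, calls of single listed genes were lost 89 times and gained 38 times, and none changed direction while called. Testing other probe sets of a galectin was not run, since each has 1.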
